A study of Mus musculus with 3 samples.

Results

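Described here are 10 transcription factor genes of the ganglionic eminence, Gsx1, Gsx2, Dlx1, Dlx2, Dlx5, Dlx6, Sp8, Sp9, Isl1 and Lhx6, which were chosen by symbol and found once each among the 31053 genes of all 3 tumors. The tumors were R26-SHH rhabdoid tumors, profiled fresh by 10x 3' single-cell RNA sequencing, and each came from a different mouse of the genotype Rosa 26-CreERT2::Smarcb1flox/flox. The labels put the 3 samples in this single group, so cells were compared with other cells of the same tumors and no group of control animals entered. The Cre recombinase is induced by tamoxifen and expressed from the broadly active Rosa26 locus, so that the cell type in which Smarcb1 was lost is not fixed by the model. The mice were on a mixed background of 129/SV and C57BL/6, and the study obtained its tumors of this class after tamoxifen in early embryonic life; the ages of these mice are not given in the sources used here.

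The ganglionic eminence is the progenitor zone of the embryonic ventral forebrain, from which most GABAergic neurons of the striatum, olfactory bulb and cortex arise. Gsx1 and Gsx2 are homeobox genes of its dividing progenitors, Dlx1 and Dlx2 are switched on as these cells commit to a GABAergic fate, and Dlx5 and Dlx6 follow in their maturing progeny. Sp8 and Sp9 encode zinc-finger factors of olfactory bulb interneurons and striatal neurons, Isl1 a LIM-homeodomain factor of striatal projection and cholinergic neurons, and Lhx6 the LIM-homeodomain factor that follows Nkx2-1 in interneurons of the medial eminence. En1, by contrast, is a homeobox gene of the midbrain-hindbrain boundary, and its presence in the same tumors raised the question of whether both programs were found in the same cells.

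Cells were assigned to states by UMIs of marker lists that contain none of the 10 genes. Of 20816 cells kept, 4227 were progenitor-like (Hes6, Dll3, Insm1 and others), 613 neuronal-like (Dcx, Stmn2, Tubb3 and others), 2025 stem-like (Sox9, Nes, Fabp7 and others) and 587 mesenchymal-like (Twist1, Col1a1 and others), each with at least 2000 UMIs. These 4 gated neural states held 4056 cells in tumor 1, 1981 in tumor 2 and 1415 in tumor 3. The states are ranges of a marker score and not cell types, since 21.2% of progenitor-like and 12.2% of neuronal-like cells lay within 25% above the cut. Neuronal-like cells retained a median of 36.7 progenitor marker UMIs per 10000, against 67.1 in progenitor-like cells, and the interneuron list (Gad1, Gad2, Sst and others) had a median of 0 in every state. A further 4048 cells of that depth passed no cut. Below 2000 UMIs, 547 shallow neuronal cells carried mature neuronal transcripts, and only 6 of them came from tumor 3. Immune cells (1895) served as the background of free RNA in the same droplets. All immune markers together had a median of 0 in each neural state and 304 per 10000 UMIs in immune cells.

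The libraries held 6428 to 12467 barcodes and 40151353 to 79529921 UMIs, and kept cells of tumor 2 had a median of only 2369 UMIs, against 7133 and 8070 in tumors 1 and 3. Between 12 and 16 kept barcodes were shared by any pair of libraries. Levels are given as CPM, the gene's UMIs per 1000000 UMIs of the state, and are counted near the 3' end of transcripts. Smarcb1, the targeted gene, had 0.419, 0.456 and 0.613 CPM in the gated neural states of tumors 1, 2 and 3 and between 19.9 and 29.0 in their immune cells. Intervals are exact 95% Poisson or binomial intervals and cover counting error only.

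The genes lie at 8 loci of GRCm38. Dlx1 (ENSMUSG00000041911, chromosome 2, 71528113 to 71533981, plus strand) and Dlx2 (ENSMUSG00000023391, 71543408 to 71546754, minus strand) face each other across 9426 bases. Dlx6 (ENSMUSG00000029754, chromosome 6, 6863334 to 6868568, plus strand) and Dlx5 (ENSMUSG00000029755, 6877805 to 6882085, minus strand) form the second such pair, 9236 bases apart. Gsx1 (ENSMUSG00000053129, 147188696 to 147190947) and Gsx2 (ENSMUSG00000035946, 75075601 to 75077893) are unlinked loci of chromosome 5. Sp9 (ENSMUSG00000068859, 73271925 to 73284706) and Lhx6 (ENSMUSG00000026890, 36081953 to 36105408) are also on chromosome 2, Sp8 (ENSMUSG00000048562, 118846329 to 118852576) is on chromosome 12 and Isl1 (ENSMUSG00000042258, 116298281 to 116309689) on chromosome 13. Exons of Dlx1 overlap those of the antisense gene Dlx1as and exons of Sp9 those of Cir1, both on the other strand, and on its own strand no member overlaps the exons of another gene.

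Promoters are shown for the Dlx1 and Dlx2 pair, whose levels moved together over states and tumors, for Gsx1, which was highest in progenitor-like cells, and for Isl1, which was highest in neuronal-like cells. Each is the stretch of 250 bases before the RefSeq start (GRCm38.p6) on the gene's strand, 5′ to 3′; the RefSeq start of Dlx1 lies within the GENCODE gene. Capitals mark CAGCTG, an E-box of the form bound by proneural factors, and TAATTA, a homeodomain core. Both motifs read the same on either strand and do not overlap.
Gsx1, chr5:147188446-147188695, plus strand: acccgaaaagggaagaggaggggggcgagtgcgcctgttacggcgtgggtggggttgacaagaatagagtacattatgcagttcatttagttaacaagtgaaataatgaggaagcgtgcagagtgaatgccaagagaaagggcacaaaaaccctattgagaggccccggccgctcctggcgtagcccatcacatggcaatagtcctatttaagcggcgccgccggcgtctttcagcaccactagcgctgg
Dlx1, chr2:71529195-71529444, plus strand: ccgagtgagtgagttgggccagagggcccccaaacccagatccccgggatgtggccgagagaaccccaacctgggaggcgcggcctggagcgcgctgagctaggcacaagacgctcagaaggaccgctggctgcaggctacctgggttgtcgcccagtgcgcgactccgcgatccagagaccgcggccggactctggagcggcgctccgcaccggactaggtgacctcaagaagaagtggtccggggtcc
Dlx2, chr2:71546755-71547004, minus strand: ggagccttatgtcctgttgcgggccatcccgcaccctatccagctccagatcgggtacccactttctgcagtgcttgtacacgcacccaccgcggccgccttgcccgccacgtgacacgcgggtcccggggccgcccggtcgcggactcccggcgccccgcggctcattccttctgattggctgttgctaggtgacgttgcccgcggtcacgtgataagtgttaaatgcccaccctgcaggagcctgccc
Isl1, chr13:116309689-116309938, minus strand: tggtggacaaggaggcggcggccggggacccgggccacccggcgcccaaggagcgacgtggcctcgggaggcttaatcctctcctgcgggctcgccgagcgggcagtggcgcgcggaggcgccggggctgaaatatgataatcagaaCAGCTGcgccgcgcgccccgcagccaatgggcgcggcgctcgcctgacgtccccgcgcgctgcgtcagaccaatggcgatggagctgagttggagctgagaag

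Of the 10 genes, 8 had RefSeq promoter windows, 12 in all, and Dlx5 and Dlx6 had no entry. The Isl1 window held CAGCTG once, beginning 103 bases before the start, and 1 of 3 Lhx6 windows (chr2:36105409-36105658, minus strand) held it at 131 and 40 bases. The motif was present in 13.0% of all 32851 windows. TAATTA was present in 4.84% of all windows and in 1 of 3 Sp8 windows (chr12:118847309-118847558, plus strand), 188 bases before the start. Neither motif was in the windows of Gsx1, Gsx2, Dlx1, Dlx2 or Sp9. The GC content was 54.0% for Gsx1, 68.0% for Dlx1, 66.4% for Dlx2 and 71.2% for Isl1, against a median of 52.4% over all windows.

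The first comparison asked whether the genes stood above the free RNA of the droplets. In edgeR, 8 of 10 were higher in the neural states than in immune cells (all but Gsx2 and Lhx6), against 32.9% of all 14795 genes tested that were called higher, 31.5% called lower and 64.4% called in either direction. Isl1, Dlx5, Dlx6 and Sp8 had at most 11 UMIs in an immune sum. These genes could pass the filter on low counts only through other sums, so the count of 8 is given as a description. Sp8 was called in 8 of 10 alternatives. In tumor 3 it had 0.0645 CPM in the neural states (interval 0.00781 to 0.233) and 0 in immune cells (interval up to 1.67). Dlx1 had 136, 124 and 63.5 CPM in the gated neural states of tumors 1, 2 and 3 and 8.29, 10.3 and 6.33 CPM in immune cells. Dlx2 had 105, 102 and 64.7 CPM against 10.6, 10.0 and 5.88 CPM. Neither gene's neural and immune values overlapped in any tumor. The log2 difference, averaged over the 4 states, was 2.71 for Dlx1 (SE 0.17, adjusted p 1.12e-09, edgeR) and 2.29 for Dlx2 (SE 0.15, adjusted p 1.63e-09, edgeR). Fitted values weigh the 4 states equally and use TMM-scaled totals. Against immune cells they are smaller here than the ratios of the CPM printed.

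Sp9 and Gsx1 also cleared the background. Sp9 reached 94.0, 103 and 142 CPM in the neural states against 5.05, 10.0 and 14.9 CPM in immune cells, and Gsx1 78.5, 46.9 and 191 CPM against 4.15, 2.31 and 17.6 CPM. For both genes, tumor 3 had the highest value in neural and in immune cells alike. Gsx2 was rare at 4.77, 3.54 and 4.16 CPM, from 205, 62 and 129 UMIs, and its average over the states differed from immune cells by 1.45 (SE 1.01, adjusted p 0.227, edgeR). Its UMIs came mostly from progenitor-like cells, where 355 UMIs stood against 2 in immune cells, a ratio of 36.3 pooled over tumors (exact 95% interval 9.98 to 301). Lhx6 had only 15, 14 and 0 UMIs in the neural states of the 3 tumors.

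The tumors differed in which of the genes they carried. Over the gated neural states, Gsx1 was highest in tumor 3 with 191 CPM (interval 187 to 196), while Dlx1, Dlx2, Dlx5, Dlx6, Sp8 and En1 were lowest there. Dlx5 had 14.2, 19.2 and 5.35 CPM and Dlx6 8.99, 10.95 and 3.42 CPM. En1 had 332, 372 and 103 CPM. Sp8 was close to absent from tumor 3, with 2 UMIs among 31002656 (0.0645 CPM, interval 0.00781 to 0.233) against 5.22 and 7.42 CPM in tumors 1 and 2. The intervals of tumor 3 did not overlap those of tumors 1 and 2 for any of these 7 genes, nor for Sp9. The mix of states differed between tumors, with 2251 of 4056, 944 of 1981 and 1032 of 1415 gated cells progenitor-like. Within progenitor-like and within stem-like cells, tumor 3 was again the highest for Gsx1 and the lowest for the other 6 genes, with intervals apart from both other tumors. Tumor 3 had only 57 neuronal-like and 35 mesenchymal-like cells. There its intervals overlapped that of at least 1 other tumor for Gsx1, Dlx5, Dlx6 and Sp8 in neuronal-like cells and for Dlx2, Dlx5, Dlx6 and Sp8 in mesenchymal-like cells, so the order of these genes is not resolved in these states. Sp9 was highest in tumor 3 in progenitor-like and stem-like cells, but not in neuronal-like cells (182, 165 and 173 CPM) or mesenchymal-like cells (35.5, 46.4 and 39.9 CPM). With 1 library per tumor the spread between libraries of a tumor is unknown, and no test was made between tumors. Gsx2, at 3.54 to 4.77 CPM, had intervals that overlapped between all 3 tumors.

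**Figure D1:**
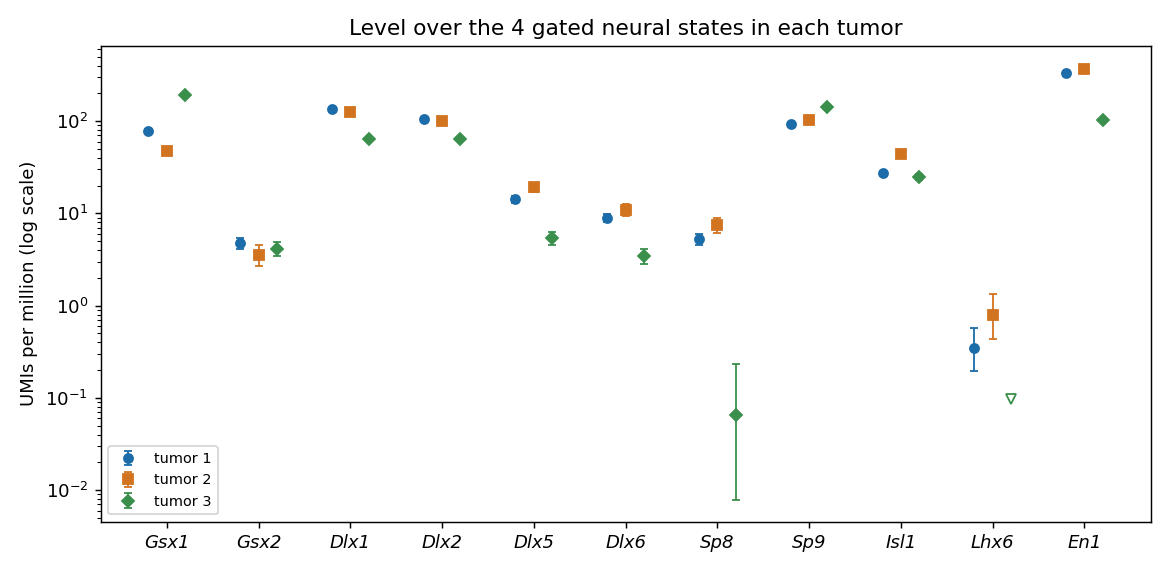
Level of each gene and of En1 in CPM (log axis) over the 4 gated neural states of each tumor, with exact 95% Poisson intervals; the open triangle stands at the level of 3 counts for a gene with 0 UMIs. Tumor 3 is highest for Gsx1 (191) and, over the pooled states, Sp9 (142), and lowest for the 4 Dlx genes, Sp8 and En1.

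Neuronal-like cells were compared with progenitor-like cells to see which of the genes follow the differentiation seen within the tumors. Gsx1, Gsx2, Sp8 and, by a small margin, Dlx2 were lower in neuronal-like cells, and Isl1, Dlx5, Dlx6 and Lhx6 were higher. Dlx1 and Sp9 did not pass the threshold. The 8 genes called compare with a background of 27.5% of 14795 genes tested, of which 14.7% were called higher and 12.9% lower. Gsx2, Sp8 and Lhx6 had hardly any UMIs in the lower state of this pair and could pass the filter on low counts only through other sums, so the count of 8 is given as a description.

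Gsx1 had 123.5, 74.6 and 226 CPM in progenitor-like cells of tumors 1, 2 and 3 and 35.6, 14.2 and 50.2 CPM in neuronal-like cells. Every progenitor-like value was above every neuronal-like value. On the log2 scale Gsx1 fell by 2.19 (SE 0.23; edgeR adjusted p 9.74e-06), in 3 of 3 tumors. Gsx2 had 7.51, 5.68 and 5.16 CPM in progenitor-like cells, while the neuronal-like sums held 1, 0 and 0 UMIs. Pooled over tumors, its progenitor-like level was 26.4 times the neuronal-like level (exact 95% interval 4.71 to 1047). Gsx1 was called in 10 of 10 alternatives, and the edgeR call of Gsx2 rests on the single neuronal-like UMI and adds nothing to this ratio.

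The Dlx genes divided by pair. Dlx1 had 162, 141.5 and 66.7 CPM in progenitor-like and 161, 138 and 51.5 CPM in neuronal-like cells, and the fitted value of -0.21 (SE 0.15) did not pass in edgeR (adjusted p 0.340). Dlx2 had 132, 123 and 69.3 CPM against 117, 95.2 and 47.7 CPM, and its difference of -0.44 (SE 0.14, adjusted p 0.0294, edgeR) was called in 5 of 10 alternatives and not in DESeq2. The values of the states overlapped between tumors for both genes. Dlx5 had 18.4, 22.1 and 5.71 CPM in progenitor-like cells and 48.4, 44.6 and 32.6 CPM in neuronal-like cells, which did not overlap. Dlx6 had 10.6, 12.9 and 3.69 CPM against 36.1, 28.4 and 16.3 CPM, likewise without overlap. Their log2 differences were 1.47 (SE 0.39, adjusted p 0.0111, edgeR) and 1.53 (SE 0.36, adjusted p 0.00535, edgeR), higher in 3 of 3 tumors each.

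Isl1 had 35.5, 59.3 and 18.4 CPM in progenitor-like and 140.5, 111 and 289 CPM in neuronal-like cells, where tumor 3 was the lowest in the former and the highest in the latter. Isl1 rose by 2.07 on the log2 scale (SE 0.45; edgeR adjusted p 0.00323) and was called in 9 of 10 alternatives, with a value of 1.36 without tumor 3. The neuronal-like value of tumor 3 rests on 57 cells, of which 29 had an Isl1 UMI. Lhx6 had 9, 11 and 0 UMIs in neuronal-like and 1, 2 and 0 in progenitor-like cells, a pooled ratio of 89.6 (exact 95% interval 26.6 to 471). Tumor 3 has no Lhx6 UMI in either state but enters both totals of this ratio, and the fitted fold was 39.4. These 20 neuronal-like UMIs came from 4 cells of tumor 1 and 2 cells of tumor 2, and up to 7 of them from a single cell. The adjusted p of 9.36e-04 in edgeR therefore describes very few cells, and Lhx6 was called in 8 of 10 alternatives.

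Sp9 was high in both states, at 128, 131 and 149.5 CPM in progenitor-like cells and 182, 165 and 173 CPM in neuronal-like cells. All 3 neuronal-like values were above all 3 progenitor-like values, but the difference of 0.26 (SE 0.26) had an adjusted p of 0.497 in edgeR. Sp8 was far less abundant, with 133, 74 and 2 UMIs in progenitor-like and 4, 1 and 0 UMIs in neuronal-like cells. Pooled over tumors, this gives a ratio of 3.11 of the progenitor-like to the neuronal-like level (exact 95% interval 1.31 to 9.68). By tumor the levels were 5.58, 7.93 and 0.0840 CPM against 2.04, 0.675 and 0 CPM, so the pooled ratio hides unlike tumors. The fitted difference of Sp8 was -2.29 on the log2 scale, and -3.65 to -1.71 with 1 tumor left out. It had an adjusted p of 0.0132 in edgeR and was called in 6 of 10 alternatives. Leaving aside Gsx2, only the call of Gsx1 held without tumor 1, and those of Gsx1 and Isl1 without tumor 2. All calls held without tumor 3.

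**Figure D2:**
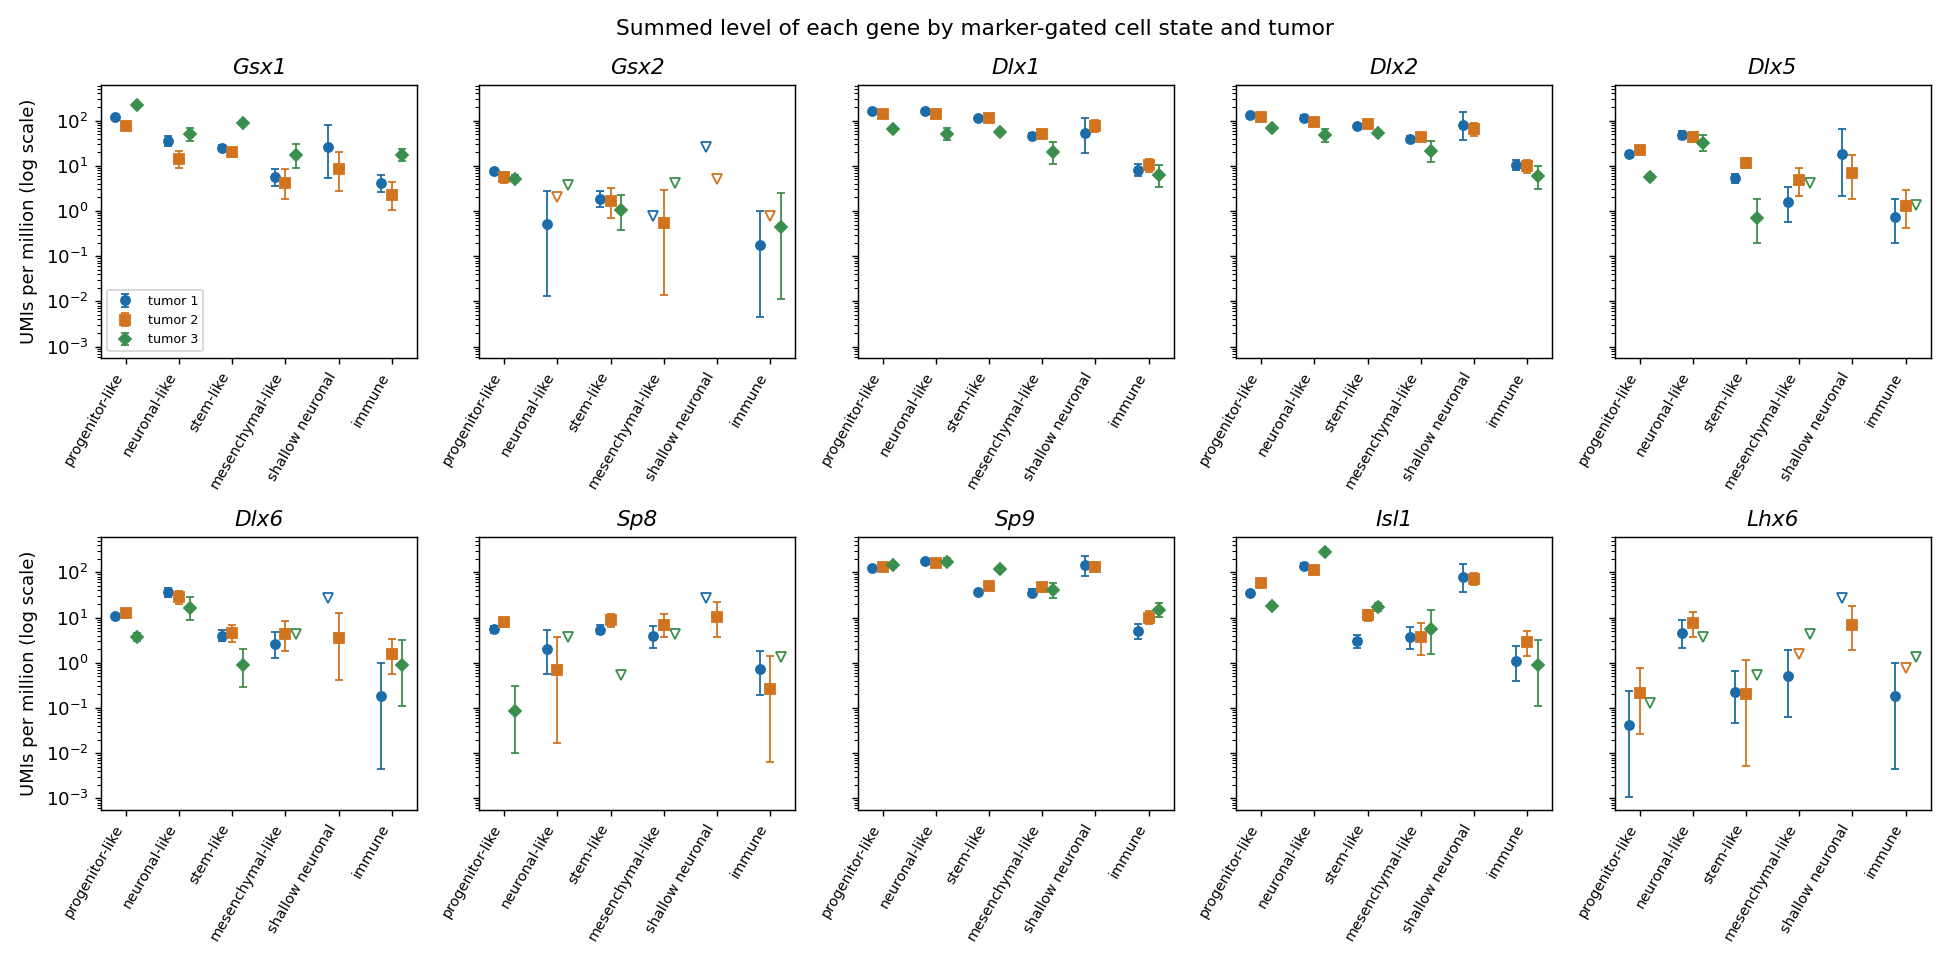
Summed level of each gene in CPM (log axis) in 6 cell groups of each tumor, with exact 95% Poisson intervals; open triangles stand at the level of 3 counts for sums with 0 UMIs, and sums of fewer than 20 cells are not drawn. Gsx1 and Gsx2 are highest in progenitor-like cells, Dlx5, Dlx6 and Isl1 in neuronal-like cells, and Dlx1 and Dlx2 differ little between these states.

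The second comparison set stem-like against progenitor-like cells. Every one of the 7 genes called was lower in stem-like cells (Gsx1, Gsx2, Dlx2, Dlx5, Dlx6, Sp9 and Isl1), against a background of 4.24% of genes called lower, 6.77% called higher and 11% in either direction. Gsx1 had 25.4, 19.9 and 88.2 CPM in the stem-like cells of tumors 1, 2 and 3, and each was under the progenitor-like value of its own tumor. This amounts to -1.80 on the log2 scale (SE 0.205; edgeR adjusted p 1.31e-04). Isl1 fell to 3.01, 11.4 and 17.1 CPM, that is, it fell by 2.002 on the log2 scale (SE 0.48; edgeR adjusted p 0.0161), although tumor 3 differed little from its progenitor-like value of 18.4 CPM. The fitted value was -1.34 without tumor 1 and -2.87 without tumor 3. Gsx2 had 1.88, 1.66 and 1.06 CPM from 25, 8 and 6 UMIs, a difference of -1.95 (adjusted p 0.00968, edgeR). Gsx2 could pass the filter on low counts only through the progenitor-like sums, so its call and the count of 7 are given as a description.

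Dlx5 had 5.26, 11.6 and 0.704 CPM in stem-like cells and Dlx6 3.98, 4.55 and 0.880 CPM, with log2 differences of -1.51 and -1.48 from progenitor-like cells (adjusted p 0.0252 and 0.0198, edgeR). In tumor 3 these values rest on 4 and 5 UMIs. Sp9 had 36.5, 51.1 and 118.5 CPM, so that its difference of -1.06 (SE 0.26, adjusted p 0.0164, edgeR) was smallest in tumor 3. Dlx1, at 112, 116 and 57.0 CPM, differed by -0.30 (adjusted p 0.201, edgeR), and Dlx2, at 75.3, 85.0 and 53.3 CPM, by -0.52 (adjusted p 0.0212, edgeR). Sp8 had 5.41, 8.69 and 0 CPM and did not pass (0.04, adjusted p 0.978, edgeR), and Lhx6 had 3, 1 and 0 UMIs. None of the 7 calls held without tumor 1 and only Gsx1 held without tumor 2, while all 7 held without tumor 3.

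Mesenchymal-like cells were compared with stem-like cells, and 3 genes were lower (Gsx1, Dlx1 and Dlx2) and none was higher, against 1.79% of all genes called lower, 4.97% called higher and 6.76% in either direction. Dlx1 had 47.0, 51.2 and 19.9 CPM in mesenchymal-like cells and Dlx2 39.7, 43.7 and 21.4 CPM, all below the stem-like values of the 3 tumors. The log2 differences were -1.30 (SE 0.17, adjusted p 2.75e-04, edgeR) and -1.07 (SE 0.15, adjusted p 6.07e-04, edgeR). Gsx1 was down to 5.71, 4.27 and 17.1 CPM (-2.32, SE 0.29, adjusted p 1.77e-04, edgeR), and these values were close to its immune background of 4.15, 2.31 and 17.6 CPM. Dlx1 and Dlx2 remained above the background of 5.88 to 10.6 CPM in each tumor. The other 7 genes did not pass, and Gsx2 and Lhx6 had 1 and 2 UMIs in mesenchymal-like cells in all. The call for Dlx2 was lost without tumor 1 and without tumor 2, with adjusted p up to 0.0633 in edgeR.

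**Figure D3:**
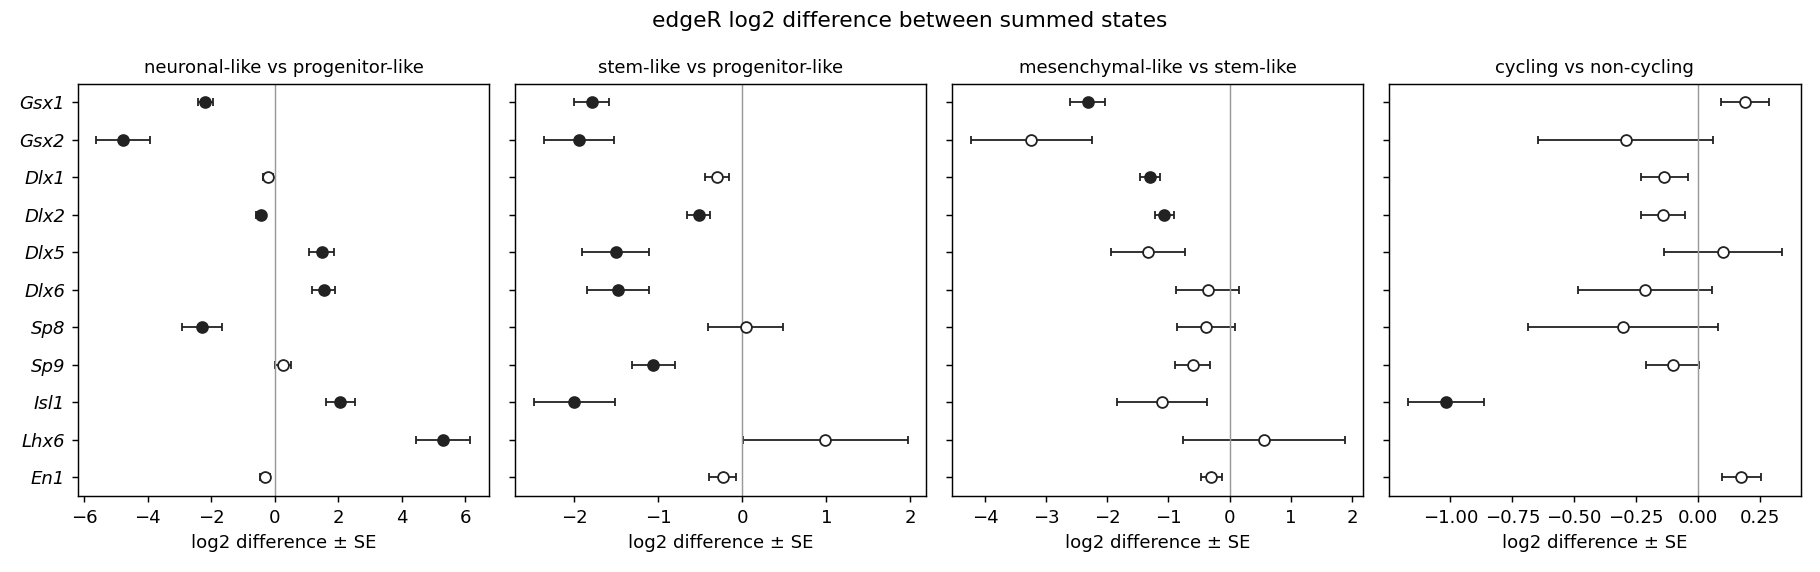
Fitted log2 difference ± SE of each gene and of En1 in 4 comparisons between summed states (edgeR, n = 3 tumors); filled points passed the adjusted threshold of 0.05 and open points did not, and Lhx6 was not tested in the cycling comparison. The axes differ between panels, and the fitted values of Gsx2, Sp8 and Lhx6 rest on few UMIs.

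Shallow neuronal cells, with medians of 1225 UMIs in tumor 1 and 1281 in tumor 2, were set against the neuronal-like cells of full depth, which had 6789 and 4268. Tumor 3 had too few such cells for a sum, so its shallow side rests on 89 and 452 cells of tumors 1 and 2, while the fitted neuronal-like level draws on all 3 tumors and on TMM-scaled totals, and a fitted value can lie outside the ratios of the CPM printed. Dlx1, Dlx5 and Dlx6 were lower and no member was higher, against a background of 8.47% of genes called lower, 4.25% called higher and 12.7% in either direction. Dlx1 had 53.5 and 76.2 CPM in shallow neuronal cells, below 161 and 138 CPM in neuronal-like cells (-1.11, SE 0.24, adjusted p 0.00704, edgeR), and the value was -1.70 without tumor 2. Dlx5 had 2 and 4 UMIs and Dlx6 0 and 2, and pooled over these tumors their levels in neuronal-like cells were 5.37 (interval 2.42 to 14.9) and 11.3 times (interval 3.06 to 94.5) those in shallow neuronal cells. With so few UMIs, Dlx5 and Dlx6 could pass the filter on low counts only through other sums, so the count of 3 is given as a description. En1 was lower too, at 143 and 149 CPM against 358 and 330 CPM (-1.35, SE 0.23, adjusted p 0.00181, edgeR). Sp9, by contrast, had 143 and 133 CPM against 182 and 165 CPM (-0.37, adjusted p 0.583, edgeR), and Isl1 80.3 and 72.7 CPM against 140.5 and 111 CPM (fitted -1.34, adjusted p 0.234, edgeR; -1.12, adjusted p 0.0726, without tumor 3). Cells below 2000 UMIs that passed neither the shallow neuronal nor a non-tumor cut had medians of 1034 and 1094 UMIs in tumors 1 and 2. There Dlx1 had 91.6 and 111 CPM, En1 271.5 and 188, Sp9 90.0 and 106 and Isl1 28.4 and 59.6. No test was made against these cells. The Smarcb1 sums of shallow neuronal cells held 0 and 3 UMIs. In tumor 2 this is 5.19 CPM (interval 1.07 to 15.2), below the 20 CPM of its immune cells (interval 15.8 to 24.96). The interval of the 0 UMIs of tumor 1 reaches up to 32.9 CPM, which lies within the interval of its immune cells (24.7 to 33.9). None of the 3 member calls held without tumor 1 or without tumor 2, where 1 pair of sums was left.

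Cycling cells were compared with the other progenitor-like and stem-like cells, since eminence progenitors divide and their neurons do not. Isl1 was the single member called, against 13.4% of 13341 genes called lower, 16.3% called higher and 29.7% in either direction, so that 1 call of 9 members tested is no more than the background. It had 11, 17.3 and 11.8 CPM in cycling cells and 25.6, 45.8 and 19.7 CPM in non-cycling cells, with every cycling value below every non-cycling value. The difference was -1.02 (SE 0.15, adjusted p 3.44e-04, edgeR) and held with each tumor left out in turn, but not without the tumor as a block. Both sides pool progenitor-like and stem-like cells with no term for these states, and the mix differed. Stem-like cells were 117 of 254, 32 of 95 and 20 of 170 cycling cells. In all there were 1185, 549 and 291 stem-like and 2251, 944 and 1032 progenitor-like cells. The part of this mix in the difference was not tested. Gsx1 had 106, 56.05 and 205 CPM in cycling and 86.0, 55.95 and 198 CPM in non-cycling cells (0.19, SE 0.10, adjusted p 0.156, edgeR). The Dlx genes, Gsx2, Sp8 and Sp9 differed by between -0.30 and 0.10 and were not called, and Lhx6 was too rare to be tested. No neuronal-like cell passed the cycling cut, of 278, 278 and 57 cells.

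Shares of cells with a UMI were compared at equal depth. With each cell thinned to 2000 UMIs, a UMI of Dlx1, Dlx2, Dlx5 or Dlx6 was seen in 33.9, 36.2 and 21.3% of progenitor-like cells and 38.1, 31.3 and 26.3% of neuronal-like cells. In stem-like cells the shares were 23.0, 28.8 and 15.8%, and in mesenchymal-like cells 13.7, 17.1 and 8.57%. The share in immune cells was 3.74, 3.54 and 2.03%, from immune cells of at least 2000 UMIs, with a median depth over all immune cells of 4120 UMIs against 9902 in the gated neural states. Over the gated neural states the share was 26.9% ± 6.05 (mean ± SD, n = 3), and it was 59.8% ± 7.399 without thinning.

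At that depth, Gsx1 was seen in 14.4, 11.5 and 28.5% of progenitor-like cells and in 5.04, 2.16 and 10.5% of neuronal-like cells. Isl1 went the other way, with 5.55, 8.47 and 3.78% against 16.9, 15.5 and 31.6%. Sp9 was seen in 17.6, 19.2 and 21.7% of progenitor-like and 28.1, 24.5 and 22.8% of neuronal-like cells. Gsx2 did not exceed 0.977% of the cells of any state and tumor. At 2000 UMIs, at least 3 of the 10 genes were seen together in 10.4, 6.83 and 7.02% of neuronal-like cells, 5.38, 5.19 and 4.26% of progenitor-like cells, 1.27, 1.46 and 1.03% of stem-like cells and at most 0.476% of mesenchymal-like cells. None of the 10 was seen in 38.8, 47.5 and 33.3% of neuronal-like cells.

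En1 and the Dlx genes were both widespread in the gated neural states, and the question was whether they were detected in the same cells more or less often than their own shares predict. At 2000 UMIs, tumor 1 had 479 cells with both En1 and a Dlx UMI of 4056, against 488 predicted from independent shares. Tumor 2 had 271 of 1981 against 269 predicted, and tumor 3 had 57 of 1415 against 48.2 predicted. Within states, the log2 odds ratio was -0.13, -0.06 and 0.37 in tumors 1, 2 and 3 (mean 0.06, SD 0.27), negative in tumors 1 and 2 and positive in tumor 3. Flipping the signs of the 3 tumors in every way, an exact permutation test (two-sided) gave a p of 1, and 0.25 is the smallest value such a test allows. Thinning draws UMIs at random, and over 50 draws the means were -0.05, 0.03 and 0.08, with a range of -0.41 to 0.70 between draws in tumor 3. Without thinning the odds ratios were 0.21, 0.60 and 1.08 on the log2 scale, positive in 3 of 3 tumors, and both kinds of UMI were then seen in 42.6, 42.9 and 46.8% of the cells. In immune cells at 2000 UMIs, En1 was seen in 2.31, 4.72 and 3.38% of cells and together with a Dlx UMI in 1 of 562, 0 of 509 and 1 of 148 cells. At full depth both were seen in 1.15, 0.900 and 1.49% of immune cells, whose median depths were 2923, 5873 and 2309 UMIs against 9553, 7552 and 19490 in the gated neural states. Cells with both kinds of UMI were thus more common in the neural states than in immune cells of the same tumor, free RNA not being corrected for. At equal depth the pairing differed from independent shares by no more than the spread between tumors and draws.

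**Figure D4:**
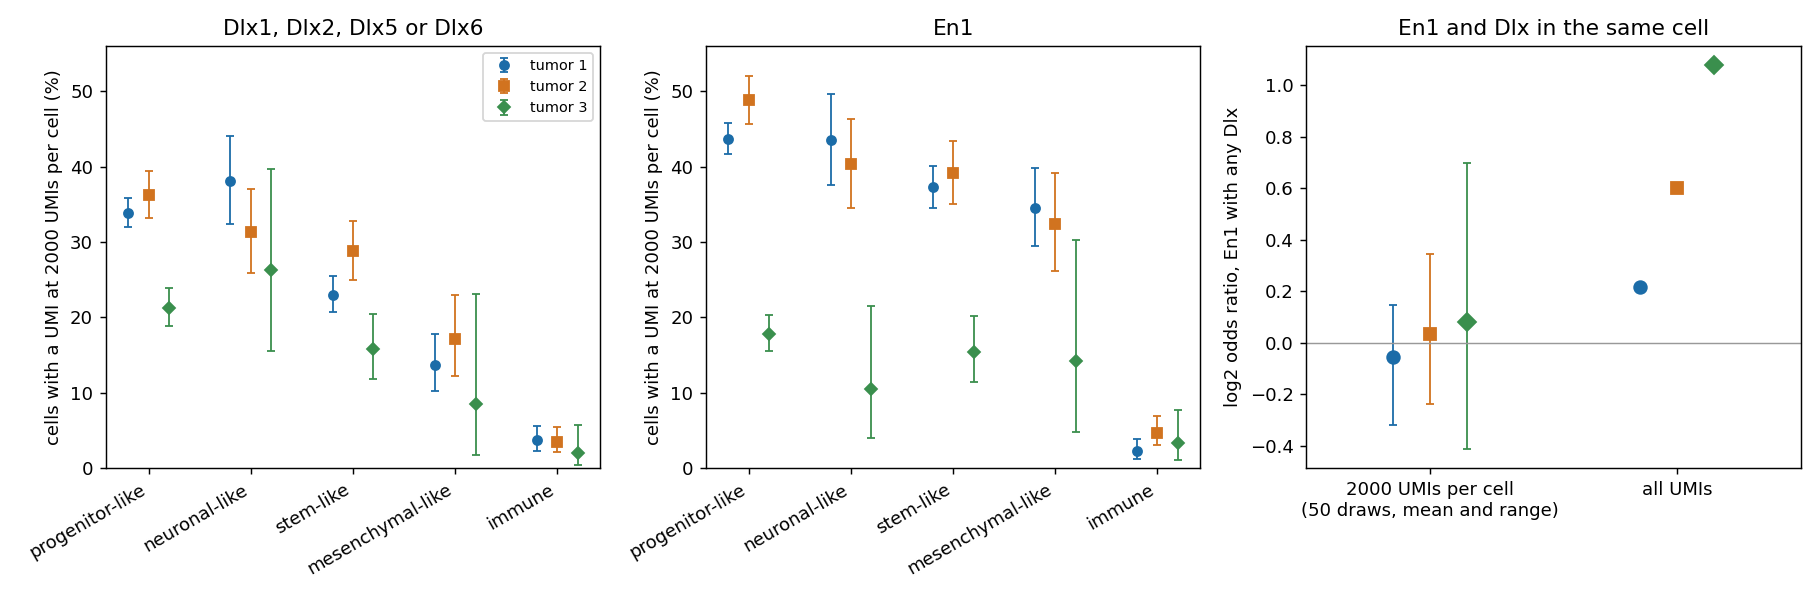
Left and centre, percent of cells with a UMI of any of the 4 Dlx genes and of En1 at 2000 UMIs per cell by state and tumor, with exact 95% binomial intervals; right, log2 odds ratio within states of En1 with any Dlx gene in each tumor, as the mean and range over 50 thinnings and without thinning. The thinned means lie between -0.05 and 0.08, and the values at full depth between 0.21 and 1.08.

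Other pairs were described in the same way, 26 pairs in all. En1 with Sp9 gave 0.21, 0.52 and 0.28, positive in 3 of 3 tumors, and over 50 draws 0.23, 0.41 and 0.07. The exact sign-flip p was 0.25, the lowest attainable here. En1 with Dlx6 gave -0.62, -0.60 and -0.76 from only 25, 15 and 1 cells with both, and En1 with Gsx1 -0.15, -0.16 and -0.15 in a single draw, which averaged -0.02, -0.06 and 0.08 over 50 draws. The linked Dlx genes were paired far more strongly. Dlx1 and Dlx2 were seen together in 255, 114 and 29 cells against 112, 57.7 and 15.6 predicted, with log2 odds ratios within states of 2.02, 1.64 and 1.20 (mean 1.62, SD 0.41). Dlx5 and Dlx6 gave 3.99, 2.24 and 4.06 (mean 3.43, SD 1.03) from 26, 7 and 3 cells. Gsx1 with any Dlx gene gave -0.02, 0.21 and 0.52, and Isl1 with any Dlx gene 0.41, 0.34 and 0.09. The smallest p possible for all of these is 0.25, so none could pass the threshold.

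Across the 17 sums of state and tumor, after subtracting each tumor's mean, Dlx1 and Dlx2 had the highest Pearson correlation of any gene with each other (0.98). The sums share libraries and include the immune sums, in which all of these genes are low, and the values are descriptions. Draxin was among the genes nearest to Gsx1 (0.93). Isl1 was nearest to Elavl2, Atat1 and Nsg2 (0.97 to 0.98) and Dlx5 to Csnk1e, Elavl4 and Fam32a (0.96 to 0.97), where Nsg2 and Elavl4 are markers of the neuronal-like gate. Runx1t1 (0.99) and Akap9 (0.98) were among those nearest to Sp9. Gsx2 (4933439N14Rik, Mybbp1a and Tlk1), Dlx6 (Yeats4, Ppil4 and Gnb1), Sp8 (Mrps25, Celrr and Adsl) and Lhx6 (Phf24 and Acr) had nearest correlations of 0.92, 0.95, 0.89 and 0.96. Among the 10 genes, the next highest pairs were Dlx2 with Sp9 (0.93), Dlx5 with Isl1 (0.90), Dlx1 with Sp9 (0.90), Sp9 with Isl1 (0.89) and Gsx1 with Dlx2 (0.85).

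The wider region lists gave the setting. Of 27 other ventral forebrain genes tested between neuronal-like and progenitor-like cells, 6 were higher and 3 lower, against 14.7% and 12.9% of all genes, with a median log2 difference of 0.23 against -0.01 for all genes. One gene of the list is also a marker of the progenitor-like gate, and of the other 26, 6 were higher and 2 lower. Gad2, which encodes a GABA-synthesizing enzyme, rose from 14.1, 45.7 and 4.03 CPM to 94.7, 267 and 158 CPM (3.36, adjusted p 3.24e-04, edgeR). Gad2 took no part in a gate. Of 6 dorsal forebrain genes, 2 were higher and none was lower, among them Eomes, a factor of cortical intermediate progenitors (2.78). Of 12 midbrain-hindbrain genes, 1 was higher and 4 were lower, among them Pax3 (-2.34) and Hes3, which had 0, 0 and 2 UMIs in neuronal-like cells. Hes3 came mainly from tumor 3, with 40.3 CPM in its progenitor-like cells against 2.81 and 0.428 CPM in tumors 1 and 2. En1 itself was not called between these states, with 359, 428.5 and 106 CPM in progenitor-like and 358, 330 and 90.4 CPM in neuronal-like cells (-0.31, SE 0.17, adjusted p 0.187, edgeR).

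Between stem-like and progenitor-like cells, 2 ventral genes were higher and 5 lower, or 2 and 4 without the gate marker (median -0.25 against -0.02 for all genes, of which 6.77% were higher and 4.24% lower), 1 of 6 dorsal genes was lower, and of 12 midbrain-hindbrain genes 1 was higher and 1 lower. The neuropeptide genes Npy (3.78) and Tac1 (2.16) were higher, and Sst (24, 10 and 19 UMIs in progenitor-like and 1, 1 and 0 in stem-like cells), the non-coding Dlx6os1 next to Dlx6 (-2.71) and the dorsal gene Neurog2 (-2.59) were lower. Dlx6os1 had 4.66, 6.83 and 0.176 CPM in stem-like cells against 27.2, 32.7 and 7.55 CPM in progenitor-like cells, the direction of Dlx5 and Dlx6. Between mesenchymal-like and stem-like cells, 2 ventral genes were higher and 3 lower (median 0.24 against -0.03 for all genes, of which 4.97% were higher and 1.79% lower). Of 12 midbrain-hindbrain genes 3 were lower and none was higher, although the list's median was 0.25, and no dorsal gene passed. Six3 (-2.45), Pax3 (-1.44), Vax1 (-1.17) and Irx3 (-1.10) were lower. In shallow neuronal cells 2 of 27 ventral genes were lower than in neuronal-like cells, close to the 8.47% of all genes, and of the midbrain-hindbrain list 1 gene, En1. In cycling cells, 3 of 25 ventral genes were higher and 5 lower, 1 of 4 dorsal genes was lower and no midbrain-hindbrain gene passed, against 16.3% of all genes higher and 13.4% lower, with Pbx3 (0.88) higher and Penk (-1.57), Rarb (-1.32), Dlx6os1 (-1.10), Sox6 (-0.70) and Foxp2 (-0.46) lower.

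Against immune cells, 22 of 27 ventral genes were higher and 1 was lower, against 32.9% and 31.5% of all genes. Of 6 dorsal genes 4 were higher, and of 12 midbrain-hindbrain genes 8 were higher, with none lower in either list. En1 differed by 3.31 (SE 0.18, adjusted p 2.08e-10, edgeR). Six3 (3.38) and Meis2 (3.28) were among the ventral genes that were higher. Tbr1 and Penk also passed, but had 0 and at most 1 UMI in the immune cells of any tumor, so that no fold is given.

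In the cells of at least 2000 UMIs that passed no cut, the levels of Dlx1, Sp9, Gsx1 and Isl1 lay between those of mesenchymal-like and progenitor-like cells of the same tumor. Dlx1 had 92.6, 88.8 and 51.2 CPM there, Sp9 44.6, 80.0 and 123 CPM, Gsx1 43.3, 21.3 and 140 CPM and Isl1 9.10, 25.3 and 11.6 CPM. In endothelial cells, 3, 2 and 4 UMIs of Lhx6 were seen in 144, 119 and 132 cells, each in a different cell. Immune cells had a single Lhx6 UMI among 11658776, so that the pooled ratio was 36.2 (exact 95% interval 5.02 to 1588). Within each tumor the Lhx6 intervals of endothelial and immune cells overlapped. Most other members were at or near the immune level in endothelial cells, for example Dlx1 with 2.78, 8.57 and 4.87 CPM.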

How the data were processed

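Single-cell RNA was measured in 3 tumors of 1 group. The authors made UMI counts per gene and cell barcode with Cell Ranger 3.1.0 on mm10, and these counts were deposited without normalization; every barcode held at least 500 UMIs. Cells below the 5th percentile of genes per tumor (never under 200) or above the median plus 3 median absolute deviations of mitochondrial share (at most 20%) were removed. The threshold of Scrublet (scanpy 1.11.5) marked 1 cell per tumor and had not worked, so the highest scores were removed at 0.8% per 1000 cells (692, 449 and 152 cells). Free RNA was not corrected for. The study's removal of non-tumor cells was not applied.

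States were gated on marker UMIs per 10000 with at least 3 marker genes seen (2 in shallow neuronal cells). The cuts were 60 for stem-like, 20 for mesenchymal-like, 40 for progenitor-like, 20 for neuronal-like, 50 for shallow neuronal and 60 for immune cells, and 20 for cycling. A cell past the cut of a non-tumor list went there, and between neural lists the larger ratio to the cut decided. No member is a marker; the ventral list shares Gad1, Gad2, Sst and Npy with the interneuron list, which had no cut and gated no cell, and 1 gene with the progenitor gate; counts without it were added after the data had been seen. Of 8851, 7111 and 4854 kept cells, sums of at least 20 cells entered edgeR 4.0.16 (quasi-likelihood test, TMM, filterByExpr, terms for state and tumor, R 4.3.3), which gave 17 sums in 1 fit and 6 sums in the cycling fit. Sums of the same tumor share the animal, which is why the tumor is a block; p-values were adjusted by Benjamini-Hochberg over all genes tested, with a threshold of 0.05. The tumors are separate animals, and each gave several sums. With the tumor as a block, the p-values measure how differences between groups of cells vary from animal to animal. They do not measure the spread of levels between animals, and the spread of a gene is estimated over all sums of a fit.

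On simulated counts for neuronal-like against progenitor-like sums (14115 genes), 47 of 100 genes changed by 1 on the log2 scale and 82 of 100 changed by 2 were recovered, and on those of the cycling comparison (13154 genes) 72 and 93. For shares and co-detection each cell was thinned once to 2000 UMIs, leaving out 397, 158 and 121 immune cells of tumors 1, 2 and 3 and no gated neural cell; odds ratios were combined over states by Mantel-Haenszel. Ratios at low counts are pooled over tumors with exact conditional intervals. Alternatives were RLE size factors, DESeq2 1.42.0, no filter, no block, each tumor left out, other cell filters, higher gate cuts and other depths; 50 further draws of the thinning were added after the data had been seen.

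The 10 genes and the lists were chosen with earlier results of these data known. Named besides them are En1, Smarcb1 and, per comparison, up to 6 genes of the region lists that passed with the same direction in all 3 tumors, by size, and the 3 genes most correlated with each member. Gene positions are from GENCODE M21. Some genes that this rule would name are not reported here, though they are included in the counts of their lists.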

Additional observations from a re-analysis of the deposited data

Results flagged for a closer look

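The following cell groups entered no comparison, and are listed because a member stood above the immune cells of the same tumor, with intervals that did not overlap, in each of the 2 tumors with at least 20 such cells. Gsx1 in oligodendrocyte precursor cells had 43.0 CPM pooled over tumors 1 and 2, from 32 UMIs (16 of 74 and 7 of 41 cells), against 3.39 CPM in immune cells of the same tumors. These cells had 106 and 59.5 CPM of Smarcb1 in tumors 1 and 2. Dlx2 in cells past the cut of the astrocyte list had 37.9 CPM from 20 UMIs in 7 of 85 and 8 of 104 cells, against 10.4 CPM in those immune cells. The astrocyte name is in doubt for these cells, above all in tumor 1. Smarcb1 was there at 0 of 273094 UMIs (interval up to 13.5 CPM, against 29.0 CPM in immune cells, interval 24.7 to 33.9) and En1 at 216 CPM against 15.1 CPM in immune cells. In tumor 2 the same cells had 23.5 CPM of Smarcb1 and 86.3 CPM of En1, and over all tumors the neural stem list had a median of 62.7 per 10000 UMIs beside 82.4 for the astrocyte list. Sp9 in oligodendrocytes had 32.4 CPM from 35 UMIs in 6 of 81 and 15 of 206 cells, against 7.09 CPM in those immune cells. En1 was at 31.9 and 82.8 CPM in the same oligodendrocytes, against 15.1 and 21.8 CPM in immune cells. The median depth was 1264 UMIs in oligodendrocytes and 1315 in cells past the astrocyte cut, against 4120 in immune cells and 6128 in oligodendrocyte precursor cells, and the part of free RNA in these values was not tested. Groups of 3 tumors are too small for a search for outlying samples.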

How the results depend on the processing

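Counts of members called depended on tumors 1 and 2. Leaving out 1 tumor gave 2 to 8 of 10 members between neuronal-like and progenitor-like cells, 0 to 7 between stem-like and progenitor-like, 2 to 4 between mesenchymal-like and stem-like, 0 to 4 between shallow neuronal and neuronal-like, and 7 to 8 against immune cells. Without the replicate block, which drops the pairing of sums by tumor, the counts were 4, 0, 0, 0 and, for cycling, 0, and 7 against immune cells; the 4 were Gsx1, Gsx2, Isl1 and Lhx6. DESeq2 called 6, 7, 3, 3, 1 and 8. The cause was not tested. Of 590 single-member values under alternatives, 514 kept direction and side of the threshold, 57 lost the call, 6 gained it and 13 reversed, none of them called. In cycling cells the reversed values were Dlx5 -0.12 without the block and, with cuts 1.5 times higher, Dlx2 0.047, Sp9 0.055 and Dlx6 0.061, and with 1 tumor left out Dlx5 ranged from -0.26 to 0.3002, Dlx6 from -0.38 to 0.033 and Sp9 from -0.26 to 0.0052. With 1 tumor left out, Lhx6 ranged from -0.058 to 1.73 and Sp8 from -0.15 to 0.11 between stem-like and progenitor-like cells, Lhx6 from -2.84 to 1.11 between mesenchymal-like and stem-like, and Sp8 from -6.70 to 3.71 between shallow neuronal and neuronal-like cells, where Lhx6 was 0.17 without the block and Gsx2 1.27 in DESeq2. The log2 odds ratio of En1 with Dlx ranged from -0.10 (without tumor 3) to 0.15, and was -0.038 with no doublets removed and -0.018 with higher cuts. The Dlx share was 16.8% at 1000, 40.8% at 4000 and 59.8% at all UMIs, and 24.7 to 30.4% with 1 tumor left out. Genes called higher made up 61.5% of all calls between stem-like and progenitor-like cells and 72% with RLE size factors, and 33.4% and 46.2% (DESeq2) in the shallow neuronal comparison. All genes called numbered 4072 between neuronal-like and progenitor-like cells, against 1382 without tumor 1, 1591 without tumor 2 and 2166 without the block; between stem-like and progenitor-like cells, 1630, against 7, 94 and 212, 2795 without tumor 3 and 2747 with higher cuts; between mesenchymal-like and stem-like, 1000, against 84, 175, 294 and 1537 without tumor 3; in the shallow neuronal comparison 1882, against 0, 232 and 1200; and in cycling cells 3961, against 2525 without tumor 1, 772 without the block and 2447 with higher cuts. Of the 10 genes, Gsx2, Sp8 and Lhx6 rest on the fewest UMIs, and all 3 tumors are of a single model.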
